A study of Mus musculus with 18 samples.

Results

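Polyadenylated liver RNA of Dp16 mice was compared with that of wild-type C57BL/6J mice, using the 6 libraries titled Dp16 and the 6 titled wild-type, which are 12 of the 18 libraries in the series. Dp16 mice carry a duplication of a segment of chromosome 16 in the germ line, so that every cell holds the genes from Lipi to Zbtb21 (chromosome 16, positions 75540514 to 97962622, GRCm38) in 3 copies. The segment includes the 4 adjacent genes Ifnar2, Il10rb, Ifnar1 and Ifngr2, which encode subunits of the receptors for interferons and interleukin 10. Both groups held 3 males and 3 females aged 17.1 to 18.0 weeks, with no treatment given in the labels. The remaining 6 libraries came from Dp16-2xIFNRs mice, which keep the extra segment but have the receptor genes back at the wild-type dosage. They entered the fit and were not compared, but they added to the estimates of the spread between libraries and of terms such as sex. The labels number the samples of each group without stating litters or separate animals, so the p-values below measure the spread between these samples.

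The segment is orthologous to much of human chromosome 21, and Dp16 mice are used as a model of trisomy 21. An extra copy of a gene is expected to raise its transcript by about the extra gene dose, unless feedback, messenger RNA turnover or a change in the cells that express it moves the level. In the liver, hepatocytes are zoned along the lobule. Those around the central vein respond to Wnt ligands from endothelial cells of that vein and express glutamine synthetase and many cytochromes P450, while those around the portal tract express urea cycle and gluconeogenic enzymes.

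The table held 55385 genes, of which 11842 had a CPM (a read count scaled to the library's total) of at least 1 in at least 6 of the 12 libraries. The CPM of single tested genes given below was also scaled by the library's TMM normalization factor. Total counts ran from 41077662 to 59923315 per library. All 10 hepatocyte identity genes listed, such as Alb and Apoa1, were expressed, where the median log2 fold change was -0.000678, with summed levels of 115000 to 168000 CPM in wild-type beside 127000 to 167000 in Dp16 livers. Pancreatic markers were nearly absent, with 5 of 12 (Cpb1, Clps, Pnlip, Try4 and Prss2) at 0 in all 12 libraries.

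The libraries differed from each other along gene length, in both groups. A length index was taken for each library from the log2 deviation of each gene from its mean over all 18 libraries. It was the median over the 20% of genes with the shortest exonic length (at most 1743.2 bases) less that over the 20% with the longest (at least 5427.4 bases). The segment was left out. The index ran from -0.80 to 0.77 in wild-type and from -1.53 in Dp16 library 5 to 1.32 in Dp16 library 4. The groups overlapped, with means of -0.0927 ± 0.668 in wild-type and -0.324 ± 1.02 in Dp16 (SD, n = 6). The same 2 libraries had the highest and lowest TMM factors of the Dp16 group, 1.363 in library 5 and 0.7714 in library 4. Fits without these 2 libraries, and a fit with the length index as a further term (the length-adjusted fit), were added after the data were seen.

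**Figure D1:**
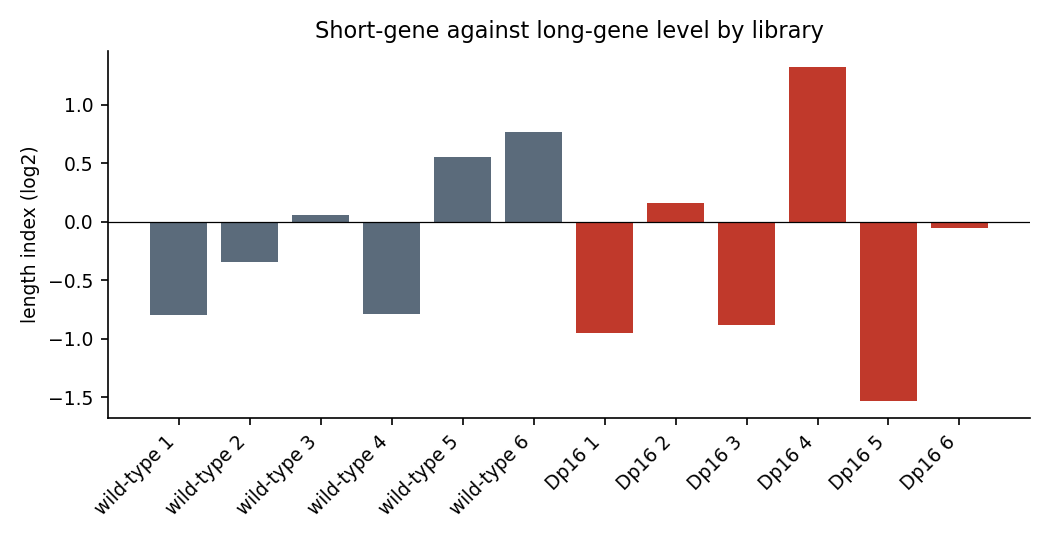
Length index (log2, vertical axis) of each of the 12 libraries, wild-type in slate grey and Dp16 in red; bars above 0 mark libraries in which short genes are high relative to long genes. Dp16 library 4 at 1.32 and Dp16 library 5 at -1.53 are the extremes, and both groups spread on either side of 0.

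Genes of the triplicated segment were higher in Dp16 livers by about the extra dose. Of the 384 segment genes in the table, 78 were expressed, and 75 of these had a positive log2 fold change (median 0.61, interquartile range 0.48 to 0.73), beside 6227 of 11764 genes elsewhere (median 0.02). A level of 3 copies to 2 corresponds to 0.585 on this scale. Ratios of Dp16 to wild-type lay from 1.25 to 1.75 for 56 of 78 segment genes (71.8%), against 1301 of 11764 other genes (11.1%). The median over segment genes of each library's log2 difference from the wild-type mean of its sex ran from 0.48 to 0.64 in the 6 Dp16 libraries and from -0.11 to 0.09 in the 6 wild-type libraries. Each wild-type library is part of the mean it is set against, which narrows the spread of wild-type values here and in the list medians below. The groups did not overlap on this value. It was 0.55 in males and 0.58 in females, and 0.56 and 0.50 within the samples whose label numbers start with 207 and 209.

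**Figure D2:**
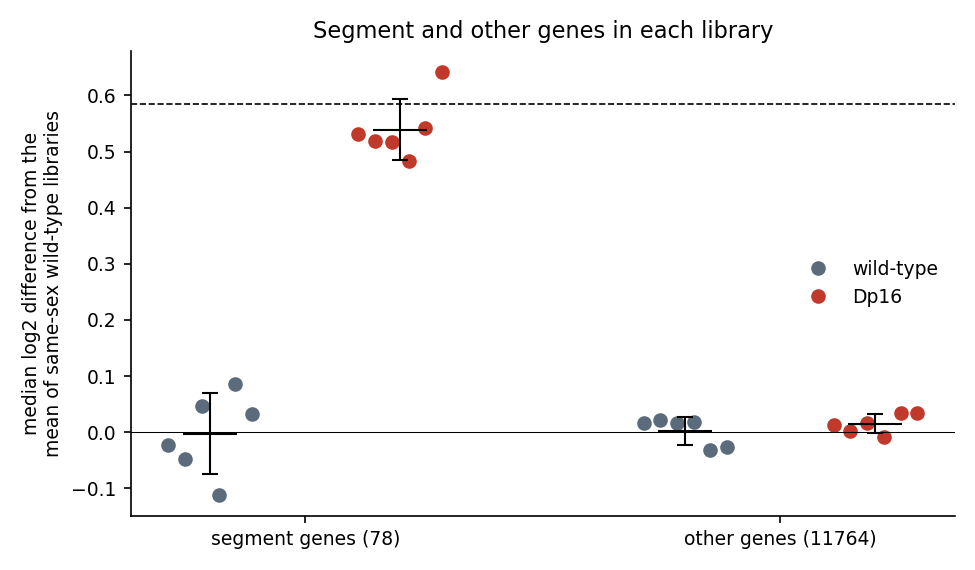
Median log2 difference of each library from the mean of the wild-type libraries of the same sex (vertical axis), over 78 segment genes and over 11764 other genes; each point is a library, horizontal lines with bars are the mean ± SD of 6, and the dashed line marks 0.585, the value for 3 copies to 2. Segment genes lie from 0.48 to 0.64 in all 6 Dp16 libraries and near 0 in wild-type, while other genes lie near 0 in both groups.

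Single segment genes were measured less firmly than the segment as a whole. No segment gene passed the threshold of an adjusted p under 0.05 in edgeR's quasi-likelihood test, where 0.0422% of all genes did. The smallest adjusted p in the segment was 0.0555 (edgeR), for Brwd1, and 45 of 78 (57.7%), 44 of them higher, had an unadjusted p under 0.05, where 5.18% of all genes did. In the length-adjusted fit, 25 segment genes rose (32.1%), where 0.431% of all genes rose, and none fell. Of the 25, 18 were called in each of the 18 fits that left out one library. DESeq2 called 7 segment genes without the length term and 38 with it.

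The 4 receptor genes all had positive fold changes, and 3 of them rose in the length-adjusted fit. Ifnar1, which with Ifnar2 forms the receptor for type I interferon, measured 19.6 to 25.1 CPM in wild-type (median 21.7) and 26.3 to 41.8 in Dp16 livers (median 32.1). The groups did not overlap, which held for 3 segment genes (3.85%) and for 0.152% of all genes in the higher direction. Its log2 fold change was 0.60 (SE 0.14, adjusted p = 0.172, edgeR), and 0.55 with an adjusted p of 0.0114 in the length-adjusted edgeR fit. Ifnar2 measured 53.8 to 69.8 CPM in wild-type (median 61.6) and 63.1 to 98.8 in Dp16 livers (median 94.1), and 6 of 6 Dp16 libraries exceeded the average wild-type level. Il10rb, shared by the receptors of interleukin 10 and type III interferon, measured 5.05 to 9.50 CPM in wild-type (median 5.90) and 6.96 to 15.8 in Dp16 livers (median 10.3). In the length-adjusted fit, Ifnar2 rose by 0.58 (edgeR adjusted p = 0.00134) and Il10rb by 0.80 (edgeR adjusted p = 0.0169). Ifngr2, of the type II interferon receptor, measured 20.2 to 40.2 CPM (median 28.5) beside 26.5 to 52.1 (median 36.7), with a log2 fold change of 0.41 and overlapping groups, and it was not called by either fit. Without Dp16 library 4 the length-adjusted calls of Ifnar1 (adjusted p = 0.106, edgeR) and Il10rb (0.101) were lost, while Ifnar2 was called in all 18 omissions.

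The 12 genes for protein folding, degradation and proteases had a median log2 fold change of 0.62. Of these, 10 had an unadjusted p under 0.05, where 57.7% of segment genes and 5.18% of all genes did. Cct8, a subunit of the cytosolic chaperonin, measured 83.7 to 115 CPM in wild-type (median 100) and 120.3 to 177 in Dp16 livers (median 155). The groups did not overlap, and the log2 fold change was 0.61 (SE 0.11, adjusted p = 0.057, edgeR). Adamts5, a secreted protease that cleaves aggrecan and versican, was the third gene with separate groups, at 1.25 to 2.74 CPM in wild-type (median 1.54) and 2.77 to 4.25 in Dp16 livers (median 3.17). It had the largest log2 fold change, 1.03, among segment genes whose mean log2 CPM was 1 or more. App, the amyloid precursor protein, measured 33.8 to 74.6 CPM in wild-type (median 55.3) and 55.9 to 136 in Dp16 livers (median 94.9). Psmg1, a proteasome assembly chaperone, measured 17.1 to 28.0 CPM (median 20.3) beside 18.0 to 58.2 (median 30.9). With the length term, Cct8, Adamts5, App and Psmg1 rose. Adamts5 lost its call without Dp16 library 4 (adjusted p = 0.124, edgeR). Hspa13, an HSP70 family member, had a log2 fold change of 0.88 but was not called by either fit; Dp16 library 4 measured 163 CPM, where the other 5 ran from 37.4 to 57.3. Bace2, a protease that can cleave App, had a log2 fold change of 0.23, with 6.56 to 11.7 CPM in wild-type (median 8.77) and 8.36 to 13.9 in Dp16 livers (median 10.1).

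All 15 expressed genes for transcription and chromatin had positive fold changes, with a median of 0.58. Of the 15, 7 had an unadjusted p under 0.05, where 57.7% of segment genes and 5.18% of all genes did. Brwd1, a bromodomain protein, measured 6.74 to 12.9 CPM in wild-type (median 8.88) and 12.3 to 19.7 in Dp16 livers (median 16.4). The single overlap was between wild-type library 1 and Dp16 library 6, and the log2 fold change was 0.85 (SE 0.16). Hmgn1, a nucleosome-binding protein, measured 65.3 to 106 CPM (median 85.7) beside 71.5 to 213 (median 116). Brwd1 and Hmgn1 were the 2 members of this group that rose in the length-adjusted fit. Erg, an ETS factor of endothelial cells, measured 5.00 to 8.22 CPM in wild-type (median 6.39) and 4.04 to 8.17 in Dp16 livers (median 6.67), so that its groups coincided. Ripply3 and Olig1, transcriptional regulators known from development, had log2 fold changes of 0.20 and 0.22, also with overlapping groups.

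The 5 kinases and signalling genes had a median of 0.76, and Dyrk1a was the member called in the length-adjusted fit. Dyrk1a, a kinase that phosphorylates NFAT factors, measured 9.98 to 23.6 CPM in wild-type (median 15.8) and 14.7 to 34.8 in Dp16 livers (median 29.1), and rose by 0.61 in the length-adjusted fit (SE 0.11, edgeR adjusted p = 0.00567). Rcan1, an inhibitor of calcineurin, had a log2 fold change of 0.33 and was not called. Among the 11 genes for membrane traffic and cell surface (median 0.61), Cxadr, Vps26c and Igsf5 rose in that fit. Cxadr, a junction protein and virus receptor, measured 30.1 to 70.0 CPM in wild-type (median 39.5) and 45.1 to 123 in Dp16 livers (median 64.5), and lost its call without Dp16 library 4 (adjusted p = 0.237, edgeR). Dop1b, of Golgi and endosome traffic, had a log2 fold change of 0.89 without being called. Jam2, a junction protein of endothelial cells, measured 10.5 to 13.6 CPM in wild-type (median 11.3) and 7.27 to 16.6 in Dp16 livers (median 11.7), with a log2 fold change of 0.03.

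In the length-adjusted fit 32.1% of segment genes and 0.431% of all genes rose. Metabolic enzymes had 5 of 10 members called in that fit, the largest share of the segment groups with at least 5 members. These were Cbr1, Atp5j, Atp5o, Cryzl1 and Sod1, and all but Cryzl1 (2968 bases) have exonic lengths of at most 1237 bases. Cbr1, a carbonyl reductase, measured 41.4 to 174 CPM in wild-type (median 81.2) and 90.3 to 314 in Dp16 livers (median 131), and 6 of 6 Dp16 libraries exceeded the average wild-type level. Its log2 fold change was 0.92 with an SE of 0.31 in the main fit (adjusted p = 0.637, edgeR) and 1.03 with an SE of 0.098 in the length-adjusted fit (adjusted p = 7.25e-06, edgeR), the smallest adjusted p of all genes there. Atp5o, a subunit of the mitochondrial ATP synthase, measured 157 to 399.6 CPM in wild-type (median 230) and 117 to 939.9 in Dp16 livers (median 318), a range set by libraries 5 and 4, and only 3 of 6 Dp16 libraries exceeded the wild-type mean. Its log2 fold change had an SE of 0.36 in the main fit and of 0.083 with the length term, where it rose by 0.60. Sod1, the cytosolic superoxide dismutase, measured 1144 to 2222 CPM in wild-type (median 1478) and 1015 to 3013 in Dp16 livers (median 1998), with a log2 fold change of 0.39, or 0.49 with the length term, where its adjusted p was 0.0527 in edgeR without Dp16 library 6. Gart, a trifunctional enzyme of purine synthesis, had a log2 fold change of 0.43 (unadjusted p = 0.00409, edgeR) and was not called.

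Protein-coding genes of the segment had the same sign without exception, with 73 of 73 higher and a median of 0.61. The 3 segment genes with negative fold changes were of other types, and none passed the test. Gm9843, a processed pseudogene of 402 bases, measured 7.84 to 36.0 CPM in wild-type (median 18.1) and 4.07 to 36.7 in Dp16 livers (median 12.0). Its log2 fold change was -0.42 over all libraries but 0.15 in males alone, and its reads may be shared with a parent gene. E330011O21Rik, a long non-coding RNA whose gene overlaps Cxadr, had a log2 fold change of -0.81 (unadjusted p = 0.0439, edgeR), and 6 of 6 Dp16 libraries lay under the average wild-type level. Gm32624 had a log2 fold change of -0.16, or 0.34 with the length term. The long non-coding RNA Gm32461, at 0.87, rose by 1.19 in the length-adjusted fit (edgeR adjusted p = 0.00827). How the counting treated strand and multi-mapping reads is not stated in the labels or notes.

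The size of the change was also taken by position and by expression level. From Lipi to Zbtb21, 4 stretches of equal length had medians of 0.61, 0.62, 0.61 and 0.59 over 8, 9, 33 and 28 expressed genes, and of 0.46, 0.45, 0.56 and 0.61 with the length term. The 300 expressed genes of chromosome 16 on the centromeric side had a median of 0.04, and 175 of them were higher. Segment genes with a mean log2 CPM under 1, of 1 to 3, of 3 to 5, and of 5 or more had medians of 0.81, 0.66, 0.59 and 0.56, over 8, 21, 35 and 14 genes. The order ran from the lowest level to the highest and was not tested. Genes outside the segment had medians in the same order, of 0.08, 0.06, 0.02 and -0.03. With the length term the segment medians were 0.63, 0.56, 0.54 and 0.61, so that this order was not kept. Genes near the expression minimum could also reach it mainly through Dp16 libraries. The 14 segment genes in the shortest length class had a median of 0.62 and the 27 in the longest 0.64; the same classes elsewhere had medians of -0.09 and 0.13. The 306 segment genes below the expression minimum, 233 of them at 0 in all 12 libraries, summed to 5.68 to 10.9 CPM in wild-type (mean 7.67) and 9.05 to 19.0 in Dp16 livers (mean 13.2).

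**Figure D3:**
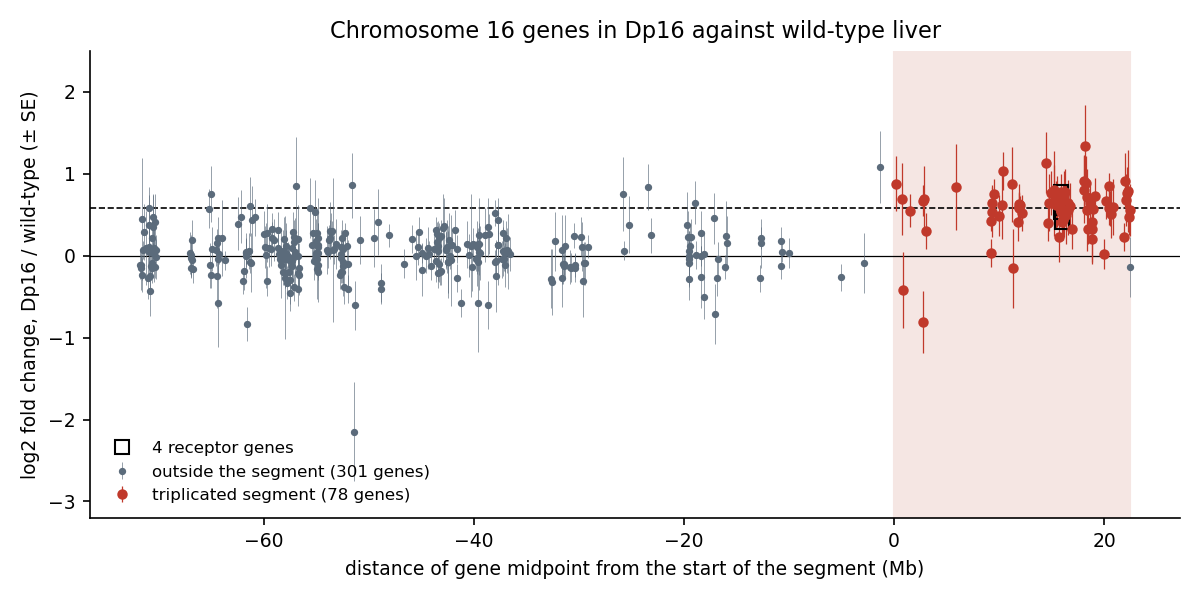
Log2 fold change of Dp16 against wild-type (vertical axis, ± SE) for the expressed genes of chromosome 16, plotted by the distance of the gene's midpoint from the start of the segment in Mb; the shaded band is the triplicated segment, squares mark the 4 receptor genes and the dashed line marks 0.585. The change begins with the segment: 75 of 78 genes inside lie above 0, while the genes before it scatter around 0.

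Outside the segment few genes passed the test. The edgeR fit called 5 genes of 11842 (0.0422%), 2 higher (0.0169%) and 3 lower (0.0253%), on 5 different chromosomes, and 568 of the 11764 genes outside (4.83%) had an unadjusted p under 0.05. Esm1, a proteoglycan secreted by endothelial cells, had the largest change of the 5, at 0.139 to 1.69 CPM in wild-type (median 0.699) and 2.13 to 7.24 in Dp16 livers (median 5.35), a log2 fold change of 2.69. Galnt15, of the family that starts mucin-type O-glycosylation, rose from 1.07 to 2.16 CPM (median 1.80) to 3.59 to 7.23 (median 4.25), a log2 fold change of 1.47. Both groups were separate in each gene.

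C4a, a complement paralog given as a long non-coding RNA in the GENCODE annotation, fell from 8.03 to 18.8 CPM (median 14.4) in wild-type to 2.79 to 6.43 (median 4.47) in Dp16 livers. Cyp2c50, a pericentral cytochrome P450, fell from 487 to 836 CPM (median 718) to 206 to 400 (median 336). Neither gene's groups overlapped, and both share sequence with close paralogs, so the assignment of their reads is uncertain. Tmem19, a membrane protein, fell by 0.79 on the log2 scale with overlapping groups, since its level also differed by sex; the log2 fold change was -0.89 in males and -0.68 in females. The adjusted p of the 5 ran from 0.0184 to 0.0301 (edgeR), and all 5 were called again in the length-adjusted fit. Leaving out 1 library at a time kept C4a in 14, Galnt15 in 13, Tmem19 in 9, Esm1 in 8 and Cyp2c50 in 7 of 18 fits. None of the 5 was called without Dp16 libraries 4 and 5, or with only the 12 compared libraries in the fit.

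**Figure D4:**
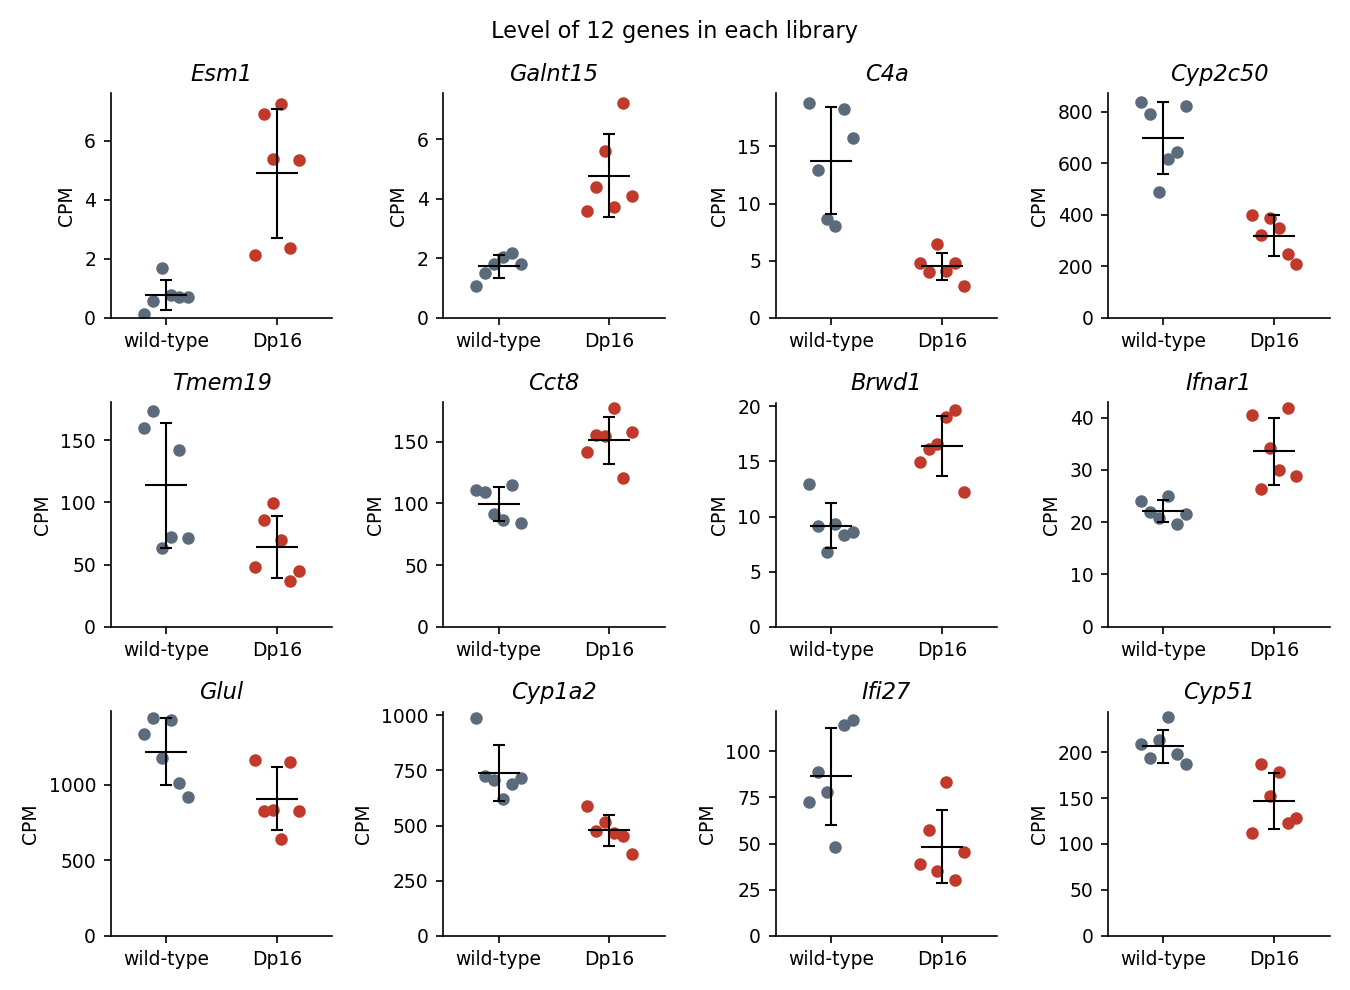
CPM of 12 genes in each library (vertical axes, from 0), with wild-type in grey, Dp16 in red, and the mean ± SD of 6 libraries in black; the top row and Tmem19 are the 5 genes called by edgeR, and Cct8, Brwd1 and Ifnar1 lie in the segment. Esm1, Galnt15, C4a, Cyp2c50, Cct8, Ifnar1, Cyp1a2 and Cyp51 have groups that do not overlap.

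With the length index in the model, 89 genes passed the threshold (0.752%), of which 64 lie outside the segment, 26 higher and 38 lower. Of the 64, 22 were called in each of the 18 fits that left out 1 library. The count of all calls ran from 57 without wild-type library 1 to 100 without wild-type library 3, and was 57 without Dp16 libraries 4 and 5. Groups were separate for 29 genes outside (0.247%), 15 higher and 14 lower, beside 0.27% of all genes. The next paragraphs describe these genes by gene list. The lists were chosen with earlier results of these data known, so a count of members in 1 direction is a description and not independent support.

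The listed genes of pericentral hepatocytes were lower. All 20 expressed members had negative fold changes, with a median of -0.46 beside 0.02 for all genes, and 13 had an unadjusted p under 0.05 in the lower direction, where 2.38% of all genes did. The list median of each library was taken relative to the wild-type mean of its sex. It ran from -0.67 to -0.23 in Dp16 and from -0.19 to 0.11 in wild-type. That mean includes the wild-type library itself and narrows the wild-type range, so the gap does not show that the groups were separate. The list median was -0.59 in males and -0.53 in females, and -0.49 with the length term. Cyp2c50 was called in the main fit, and Cyp2c50, Gulo, Cyp1a2, Glul and Lect2 fell in the length-adjusted fit, where 0.321% of all genes fell. Cyp1a2 was not called without wild-type library 1 (adjusted p = 0.0692, edgeR), and the other 4 were called in all 18 omissions. In bulk liver, fewer cells of a type and less RNA per cell cannot be told apart.

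Glul, the glutamine synthetase of the innermost pericentral layer, measured 917 to 1443 CPM in wild-type (median 1256) and 641 to 1163 in Dp16 livers (median 831). The groups overlapped, and 6 of 6 Dp16 libraries lay under the average wild-type level. Cyp1a2, which oxidizes caffeine and aromatic amines, measured 622 to 987 CPM (median 710) beside 372 to 586 (median 471), with separate groups. Gulo, the last enzyme of vitamin C synthesis, measured 410 to 557 CPM (median 463) beside 272 to 414 (median 349), and Cyp2e1, of ethanol oxidation, 4943 to 7667 (median 6820) beside 2951 to 5409 (median 4636). Cyp2e1 had a log2 fold change of -0.53 and an adjusted p of 0.055 in the length-adjusted edgeR fit. Cyp2c54, a paralog of Cyp2c50, had a log2 fold change of -1.45, with 96.2 to 450 CPM in wild-type (median 272) and 45.4 to 199 in Dp16 livers (median 93.6). Wnt2, a ligand made by pericentral endothelial cells, measured 3.74 to 5.94 CPM in wild-type (median 4.83) and 0.673 to 3.05 in Dp16 livers (median 2.1); its groups were separate, its log2 fold change was -1.24, and its adjusted p was 0.221 in edgeR and 0.0602 with the length term. Sp5, a transcription factor induced by Wnt signalling, had a log2 fold change of -1.26.

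Because Wnt signalling acts through TCF factors, the RefSeq promoter windows (300 bases, from 250 before to 50 after a gene's start, GRCm38.p6) were searched for the core TCF motif CTTTGAT on both strands. It was found in 4 of 15 pericentral genes with a window (26.7%), and in 298 of 9222 tested genes (3.23%) and 4.29% of all genes with one. The 4 sites are printed with 10 bases on either side, 5′ to 3′ on the strand of the gene, with the motif or its reverse complement in capitals.

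Cyp2c29 (chr19:39286956-39286982): ttttatctctATCAAAGagacaaagtc

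Lect2 (chr13:56548554-56548580): gcttctccagATCAAAGgctttggccg

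Slc1a2 (chr2:102706221-102706247): gaagagggacATCAAAGgccccaaatg

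Sp5 (chr2:70474809-70474835): gcaaggccccCTTTGATcaggaaaatc

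The log2 fold changes of these genes were -0.45 for Cyp2c29, -0.65 for Lect2, -0.10 for Slc1a2 and -1.26 for Sp5, and Lect2 was the one called with the length term. Since all 20 members of the list had negative fold changes, the direction of these 4 says nothing about the motif. A match is a description of the letters and was not tested as a site.

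Periportal genes were not lower. Of 18 expressed members, 15 had positive fold changes, with a median of 0.19 and library medians of -0.08 to 0.44 in Dp16 beside -0.16 to 0.28 in wild-type. Sdsl, a serine dehydratase-like enzyme, rose by 0.89 in the length-adjusted fit (edgeR adjusted p = 0.0063). Its log2 fold change was 1.53 in males and 0.09 in females. Of the gluconeogenesis and insulin response list, 12 of 18 were higher (median 0.16) and none was called; Igfbp1, an IGF-binding protein that insulin represses, measured 35.0 to 109 CPM in wild-type (median 74.4) and 120 to 208 in Dp16 livers (median 157), with separate groups and an adjusted p of 0.37 in edgeR. Igfbp3, the main carrier of circulating IGF, rose by 0.63 in the length-adjusted fit (edgeR adjusted p = 0.00553), from a median of 19.4 to 27.9 CPM.

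Cholesterol synthesis genes were lower in all 26 expressed members, with a median of -0.29. Library medians ran from -0.47 to -0.16 in Dp16 and from -0.34 to 0.28 in wild-type, so that the groups overlapped through 1 wild-type library. Of the 26, 9 had an unadjusted p under 0.05 in the lower direction, where 2.38% of all genes did. Msmo1, Cyp51 and Nsdhl, which act on the sterol ring after lanosterol, fell in the length-adjusted fit, where 0.321% of all genes fell. Cyp51, the lanosterol demethylase, measured 187 to 238 CPM in wild-type (median 203) and 112 to 187 in Dp16 livers (median 140), without overlap. Its call was lost without Dp16 library 6 (adjusted p = 0.105, edgeR), and that of Nsdhl without Dp16 library 4 (0.179). Msmo1, the sterol 4-methyl oxidase, measured 166 to 264 CPM (median 195) beside 56.4 to 223 (median 93.5), and its log2 fold change was -0.39 in males and -1.41 in females. Mvd, the mevalonate diphosphate decarboxylase, had a log2 fold change of -1.04, from a median of 52.1 to 20.9 CPM, and was not called. The sterol regulatory element, searched on both strands as TCAC, 1 base of any kind and CCAC, was found in 1 of 18 cholesterol genes with a promoter window (5.56%, Hmgcs1), and in 1.5% of tested genes and 1.44% of all genes with one. The list median was -0.21 in males and -0.43 in females, and the difference between the sexes was not tested for the list.

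Fatty acid synthesis genes gave another picture. Of 16 members, 13 had positive fold changes and the median was 0.24, but it was 0.0095 with the length term, -0.43 in males, 0.75 in females and 0.15 without Dp16 libraries 4 and 5. Library medians spread from -1.02 to 1.41 in Dp16 beside -0.35 to 0.57 in wild-type. The median exonic length of the list was 3960 bases. No member was called by either fit.

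Genes of stellate cells and matrix were higher in 25 of 26 expressed members, with a median of 0.45, and 11 had an unadjusted p under 0.05 in the higher direction, where 2.8% of all genes did. Library medians ran from 0.22 to 0.85 in Dp16 and from -0.26 to 0.12 in wild-type, with no overlap. The wild-type range is narrowed as described above, so the gap between the nearest libraries is less wide than it looks. The list median was 0.46 in males, 0.54 in females and 0.38 with the length term. Bgn, the matrix proteoglycan biglycan, measured 102 to 152 CPM in wild-type (median 109) and 134 to 189 in Dp16 livers (median 159), and was the single member that rose in the length-adjusted fit (0.44, edgeR adjusted p = 0.0341), a call lost without Dp16 library 6 (0.111). Col6a1 and Col1a2, chains of collagens VI and I, had log2 fold changes of 0.82 and 0.73, from medians of 5.73 and 10.7 CPM to 9.37 and 14.8, and were not called. Cygb, a globin of stellate cells, rose by 0.89 in the length-adjusted fit, as did Adamtsl2, a matrix protein, by 0.94, and Podn, a small leucine-rich proteoglycan, by 0.96; none of these 3 was in the list. Podn was not called without Dp16 library 4 (adjusted p = 0.179, edgeR), nor Adamtsl2 without Dp16 library 6 (0.0565). The summed level of the list was 508 to 862 CPM in wild-type and 578 to 1410 in Dp16 livers.

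Endothelial genes were higher in 18 of 23 members (median 0.18, or 0.09 with the length term), with Dp16 library medians from -0.54 to 0.44. Lyve1, a hyaluronan receptor of sinusoidal and lymphatic endothelium, measured 3.36 to 8.41 CPM in wild-type (median 5.74) and 8.08 to 13.7 in Dp16 livers (median 12.2), and rose by 1.08 in the length-adjusted fit (edgeR adjusted p = 0.00242). Esm1 and Lyve1 rose, while Wnt2 had a negative change and Erg and Jam2 had none beyond the spread. Cavin1, a component of caveolae, rose by 0.71 in that fit but not without Dp16 library 4 (adjusted p = 0.0939, edgeR).

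Markers of immune cells moved in different directions. Of 17 Kupffer cell markers 11 were lower (median -0.08). The median was 0.32 in males and -0.61 in females, a difference not tested, and ran from -0.75 to 0.40 over the Dp16 libraries. Fcna and Folr2 fell in the length-adjusted fit, and both lay under the average wild-type level in 6 of 6 Dp16 libraries. Fcna, a ficolin, measured 29.8 to 48.5 CPM in wild-type (median 36.1) and 18.4 to 29.8 in Dp16 livers (median 22.2). Folr2, a folate receptor of resident macrophages, measured 12.4 to 25.8 CPM (median 13.3) beside 6.20 to 12.6 (median 9.71). Ccl24, an eotaxin made by macrophages, fell by 1.57 in that fit, from 2.56 to 3.95 CPM to 0.491 to 1.90 with separate groups. Without wild-type library 1, Folr2 (adjusted p = 0.108, edgeR) and Ccl24 (0.0965) were not called. The neutrophil genes S100a8 and S100a9, which encode the subunits of calprotectin, rose by 1.77 and 1.53 in that fit (edgeR adjusted p = 0.00567 and 0.00331), at medians of 0.986 and 1.77 CPM in wild-type and 2.75 and 2.67 in Dp16 livers. Neutrophil and monocyte markers summed to 46.3 to 133 CPM in wild-type and 66.6 to 219 in Dp16 livers, and 10 of the 18 listed lay below the expression minimum.

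B and plasma cell genes had a median of 1.11 over 9 expressed members, and none was called. At an unadjusted p under 0.05, 5 of the 9 were higher, where 2.8% of all genes were. Ighg2c and Ighg2b, constant regions of IgG, measured medians of 1.05 and 1.71 CPM in wild-type and 6.24 and 6.21 in Dp16 livers. They share sequence with each other. Summed levels were 39.7 to 145 CPM in wild-type and 64.1 to 297 in Dp16 livers, and Dp16 library medians spread from -0.64 to 2.4. T and NK cell markers (7 expressed, median 0.48) and erythroid genes (8 expressed, median 0.72) had no call. The list medians differed in size or sign between males and females, at 2.13 and 0.37 for B and plasma cells, 1.19 and -0.10 for T and NK cells, and 1.25 and 0.19 for erythroid genes, and these differences were not tested. The erythroid median was 0.34 without Dp16 libraries 4 and 5. The part that these cells play in the other changes was not tested.

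In both interferon lists more genes had negative than positive fold changes, while the 4 receptor genes had positive ones. Of 39 expressed genes of the interferon alpha response, 26 were lower and 13 higher, with a median of -0.12 and Dp16 library medians from -0.28 to 0.08. The member with the smallest p was Ifi27, a mitochondrial protein induced by type I interferon, which fell by 0.75 in the length-adjusted fit (SE 0.11, edgeR adjusted p = 0.00134), from 48.1 to 117 CPM (median 83.5) to 30.3 to 83.4 (median 42.0). The groups overlapped, and 6 of 6 Dp16 libraries lay under the average wild-type level. The next was Mx2, of a family of antiviral GTPases, with a log2 fold change of 0.92 and an unadjusted p of 0.0138 in edgeR. Mx2 itself lies in the triplicated segment and is given as a polymorphic pseudogene in the annotation. Of 30 genes of the interferon gamma response and antigen presentation, 18 were lower and 12 higher (median -0.05), and none was called. At an unadjusted p under 0.05 in edgeR, 3 of the 30 were higher, where 2.8% of all genes were, and none was lower. The median of this list was 0.17 in males and -0.27 in females, a difference not tested. Whether receptor dose and these responses are linked was not tested.

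The interferon-stimulated response element, searched on both strands as GAAA, 2 bases of any kind and GAAA, was present in the promoter windows of 15 of the 28 interferon alpha genes that had one (53.6%), and in 3.78% of tested genes and 3.99% of all genes with a window. Of the 15 genes with a match, 5 had positive and 10 negative fold changes, with a median of -0.09. The sites are printed for the 6 most highly expressed genes with a match before the gene's start, 1 for each gene, in the same format.

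Bst2 (chr8:71537577-71537606): ccaggaaaatGAAACTGAAAggctgcagtt

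Stat2 (chr10:128270266-128270295): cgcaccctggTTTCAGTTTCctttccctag

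Isg15 (chr4:156200865-156200894): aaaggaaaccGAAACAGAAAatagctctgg

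Ifit3 (chr19:34583397-34583426): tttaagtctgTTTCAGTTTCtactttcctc

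Rsad2 (chr12:26456553-26456582): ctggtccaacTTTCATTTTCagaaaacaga

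Ifit1 (chr19:34640794-34640823): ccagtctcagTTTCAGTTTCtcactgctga

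Bst2, which tethers virions at the cell surface, measured mean levels of 118 CPM in wild-type and 122 in Dp16 livers. Stat2, a transducer of the type I receptor, measured 24.9 beside 29.5 CPM. Isg15, a ubiquitin-like modifier, measured 12.6 beside 10.1 CPM, Ifit3, 12.6 beside 11.9 CPM, Rsad2, the enzyme viperin, 9.00 beside 9.24 CPM, and Ifit1, 9.78 beside 8.32 CPM. None of the 6 had an unadjusted p under 0.05, which does not show that their levels were equal.

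Among the remaining metabolic lists, xenobiotic metabolism was lower in 19 of 27 members (median -0.15), and Cyp2c50 and Cyp1a2 were its calls in the length-adjusted fit. Bile acid synthesis and transport was lower in 15 of 21 (median -0.17), without a call. Slc22a7, an organic anion transporter, was in no list and fell by 1.73 in that fit, from 11.8 to 87.3 CPM (median 42.9) to 4.37 to 37.7 (median 12.2), with a wide spread in both groups. Acmsd, an enzyme that diverts tryptophan breakdown from NAD synthesis, rose by 1.27 in that fit, with a log2 fold change of 1.84 in males and 0.49 in females. Rarres1 and Cenpm fell by 1.10 and 1.27 there, and Prkcz, an atypical protein kinase C, fell by 0.70 with separate groups. Scn8a, a sodium channel subunit, rose by 2.48, from 0 to 1.11 CPM to 1.36 to 4.07. Without Dp16 library 4 the calls of Rarres1 (adjusted p = 0.143, edgeR), Cenpm (0.118), Prkcz (0.0795) and Scn8a (0.118) were lost.

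Of the core clock list 12 of 19 were lower, with a median of -0.47, or -0.29 with the length term and -0.25 without Dp16 libraries 4 and 5. It was -0.47 in males and -0.25 in females, and ran from -1.14 to -0.06 over the Dp16 libraries. The E-box CACGTG was found in the promoter windows of 4 of 16 clock genes (25%), 2 higher and 2 lower, and in 12% of tested genes and 8.09% of all genes with a window. Per2, a repressor of the clock, measured 4.24 to 13.2 CPM in wild-type (median 6.57) and 0.885 to 4.81 in Dp16 livers (median 2.88), and was not called. Of p53 targets, 16 of 17 were higher, with a median of 0.20, or 0.09 without Dp16 libraries 4 and 5. At an unadjusted p under 0.05, 4 of the 17 were higher, where 2.8% of all genes were. Cdkn1a, a cell cycle inhibitor, measured 3.64 to 16.0 CPM (median 5.29) beside 13.4 to 52.3 (median 19.9), with an adjusted p of 0.221 in edgeR.

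Lists with medians within 0.15 of 0 and no call in either fit were fatty acid oxidation (-0.01), ER stress (0.02), NF-kB targets (0.11), NRF2 targets (0.06), immediate early genes (0.01), mitochondrially encoded genes (-9.6e-05), proliferation (0.05), acute phase (0.12) and cholangiocyte markers (0.02). NRF2 targets include the segment gene Cbr3. With the length term the acute phase median was 0.22. In males and females the medians were 0.555 and -0.174 for acute phase and 0.28 and -0.33 for immediate early genes. They were 0.33 and 0.03 for NF-kB targets, -0.15 and 0.18 for fatty acid oxidation, and 0.13 and -0.20 for mitochondrially encoded genes. The others of these lists stayed within 0.15 of 0 in each sex, and differences between the sexes were not tested. Complement and coagulation genes were split 15 to 15 (median -0.01), with C4a the one call. The growth hormone and IGF axis had a median of 0.12, or -0.01 without Dp16 libraries 4 and 5, with Igfbp3 the one call in the length-adjusted fit. Adipocyte markers had a median of -0.15 over 6 genes, or 0.03 without Dp16 libraries 4 and 5. Without those 2 libraries the median was 0.15 for fatty acid oxidation, 0.12 for immediate early genes and -0.28 for female-biased genes. Cela1, the one pancreatic marker above the expression minimum, fell by 0.83 in that fit (not called without wild-type library 1, edgeR adjusted p = 0.108). Genes with male-biased expression had a median of -0.49 over 16, with wild-type library medians from -0.59 to 0.93, and genes with female-biased expression -0.10 over 18, with Cyp17a1, a steroid hydroxylase, the one call (1.42 in the length-adjusted fit and not called without wild-type library 2, edgeR adjusted p = 0.119).

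**Figure D5:**
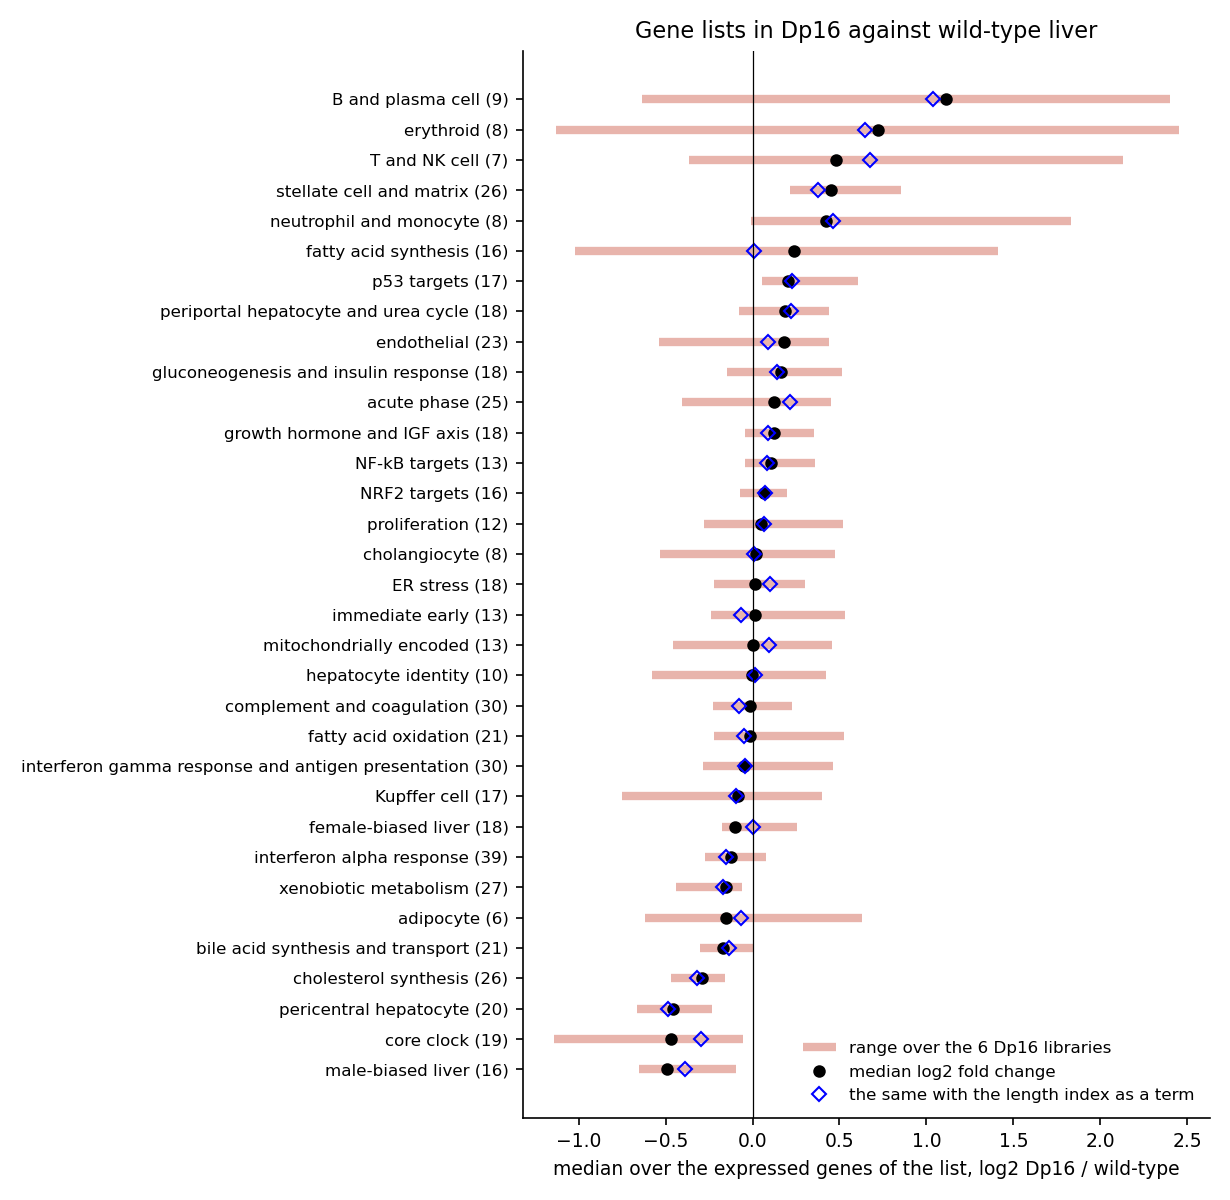
Median log2 fold change of Dp16 against wild-type over the expressed genes of each list (black points; number of genes in parentheses), the same with the length index as a term (blue diamonds), and the range of the list median over the 6 Dp16 libraries relative to wild-type of the same sex (bars). Pericentral hepatocyte, cholesterol synthesis, core clock, xenobiotic metabolism and male-biased liver genes lie below 0 in all 6 libraries. Stellate cell and matrix genes and p53 targets lie above 0 in all 6, while fatty acid synthesis and blood cell lists range widely on both sides.

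Male and female Dp16 effects were compared with an interaction term. No gene passed the threshold (0%), with 1047 genes (8.84%) at an unadjusted p under 0.05 in edgeR, and limma-voom called 0 and DESeq2 called 34. With the length term, 0 were called and 576 (4.86%) had an unadjusted p under 0.05. The mean length index was 0.393 higher in Dp16 than in wild-type males and 0.855 lower in Dp16 than in wild-type females (n = 3 each). Segment genes in the shortest length class had medians of 0.89 in males and 0.25 in females, and those in the longest 0.38 and 0.89; the same classes outside had 0.24 and -0.47, and -0.12 and 0.38. The segment as a whole had medians of 0.54 in males and 0.56 in females when each sex was fitted alone.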

How the data were processed

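Per the labels' protocols, liver RNA was extracted with TRIzol, enriched for polyadenylated RNA, made into strand-specific libraries and sequenced as paired ends. Per the submitters' processing notes, HTSeq 0.6.1 and HISAT2 2.1.0 were used on the build GRCm38, beside SAMtools 1.5, FastQC 0.11.5 and bcl2fastq. The strand setting of the counting is not stated there. The authors deposited whole-number read counts per gene, and RPKM values that match these counts scaled by gene length and depth. Of the gene identifiers, 99.56% were found in GENCODE M21.

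Counts of 11842 genes with a CPM of at least 1 in at least 6 of the 12 libraries were fitted with edgeR 4.0.16 (TMM factors, quasi-likelihood test, group and sex as terms, all 18 libraries, R 4.3.3), and a gene was called at a Benjamini-Hochberg adjusted p under 0.05. CPM of single tested genes used the TMM-scaled library size, while the expression minimum, the summed levels and the CPM of gene a used the total count. DESeq2 1.42.0, limma 3.58.1 (voom, and log2 RPKM with pseudocounts of 0.1 and 1) and sva 3.50.0 were alternatives. The length index as a term, a gene length offset, surrogate variables, and the fits without Dp16 libraries 4 and 5 were chosen after seeing the data. The 12 libraries held 41077662 to 59923315 counts, and the median biological coefficient of variation was 0.302. Tested on simulated data for this comparison (11842 genes), the edgeR fit recovered 8 of 67 genes changed 1.5-fold, 32 of 67 changed 2-fold and 62 of 66 changed 4-fold, with 2 false among 104 calls. The simulated counts were drawn gene by gene from wild-type means and library sizes. They held no sex effect and no shared trend along gene length, so recovery and false calls in the real libraries may differ.

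The members and gene lists were chosen with earlier results of these data known. Genes are named where called, by extreme fold change in the segment or by the smallest p in each list; genes called only with the length term, and the motif examples, were named after their values were seen. Promoter sequences are from RefSeq.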

Additional observations from a re-analysis of the deposited data

Results flagged for a closer look

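Of 70 groups of 6 libraries examined for a single library far from the others, 5 had one, and chance gives about 5%. Hspa13 was highest in wild-type library 5 (64 CPM) and in Dp16 library 4 (163 CPM). Jam2 was highest in wild-type library 1 (13.6 CPM), and Il10rb in wild-type library 3 (9.5 CPM). The median log2 difference of segment genes was highest in Dp16 library 6, at 0.642.

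Jam2 had log2 fold changes of -0.343 in males and 0.41 in females, with an unadjusted p of 0.0246 for the difference in edgeR, and no gene differed between the sexes after adjustment.

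Gene a, the nonagouti locus (chromosome 2, positions 154791402 to 155051012, GRCm38), fell below the expression minimum, with a CPM of at least 1 in 5 libraries, and entered no test. It had 0 counts in each of the 6 wild-type libraries and 34 to 153 in the 6 Dp16 libraries, 624 in all, at 0.768 to 3.42 CPM.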

How the results depend on the processing

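The count of 5 called genes depended on the model. It was 61 with DESeq2, 12 with limma-voom, 13 and 11 on log2 RPKM plus 0.1 and plus 1, 2 without the sex term, 16 with the description number as a random block, and 0 with only the 12 libraries compared, with males only, with females only or without Dp16 libraries 4 and 5. It was 89 with the length index term, 23 with a gene length offset, 95 with 1 surrogate variable and 137 with 2 surrogate variables, all chosen after seeing the data. Leaving out 1 library gave 0 (without wild-type library 6 or Dp16 library 2) to 8 (without Dp16 library 4). It was 1 without wild-type library 2, 4 or 5 or Dp16 library 6, 2 without Dp16 library 5 or Dp16-2xIFNRs library 2, and 3 without Dp16-2xIFNRs library 1. The 89 calls shared 39 with DESeq2, 11 with voom and 86 with 1 surrogate variable, and with the length term DESeq2 called 231 and voom 106.

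The sample descriptions also carry a number whose meaning is not given. The 18 libraries had 12 such numbers, 5 of them shared by libraries of different groups, and 1 shared by a wild-type and a Dp16 library (wild-type library 1 and Dp16 library 3). As a random block in limma-voom these numbers had a consensus correlation of 0.493, and the calls were 16, 2 of them in the segment, beside 12 and 2 by limma-voom without the block.

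No pairing by replicate number was seen in residuals after group and sex. Those of same-numbered wild-type and Dp16 libraries correlated from -0.433 to 0.528, and 0 of 6 matched their own number best. The residuals still held the differences along gene length, so this check cannot exclude a pairing. With the replicate block, 4 genes were called, and 87 with the length term as well.

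Genes differing between the sexes numbered 0, but 34 with DESeq2, 1 without a low count filter and 0 to 1 when 1 library was left out. The segment median of 0.61 was 0.542 in males only and 0.422 on log2 RPKM plus 1.

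Of 3560 values of 89 named genes under 40 settings, 3310 kept direction and call and 32 changed sign. In males only Gm9843 was 0.153, Jam2 -0.343, Olig1 -0.149 and Tyms 0.00759. In females only Erg was -0.162, Bace2 -0.0639, C9 -0.0145, Ccl5 -0.466, Anxa4 -0.025, Sox9 0.383, Fabp4 -0.0621 and Lpl -0.272. With an age term Erg was -0.0398 and Sox9 0.00387, and without a sex term Olig1 was -0.00778. With the random block Erg was -0.0072 and Jam2 -0.0309, without Dp16 libraries 4 and 5 -0.13 and -0.0134, and with the length offset -0.0083 and -0.0148. Leaving out 1 library gave -0.0651 to 0.139 for Erg, -0.0328 to 0.136 for Jam2, -0.107 to 0.361 for Olig1 and -0.527 to 0.293 for Sox9. The cause was not tested.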
